A study of Caenorhabditis elegans and Caenorhabditis briggsae with 12 samples.

Results

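The insulin-like peptide genes of *Caenorhabditis elegans* were taken as every gene of the *C. elegans* file named *ins* with a number, together with *daf-28*, which gave 40 genes of 20213. Of these, 39 were annotated as protein coding and 1, *ins-38*, as a pseudogene. The genes were chosen by name, with no threshold on their levels or response to heat, but with earlier results of these data known. Insulin-like peptides are small secreted ligands of DAF-2, the only insulin/IGF receptor of the worm. Agonists switch on a PI3 kinase and AKT cascade that keeps the FOXO factor DAF-16 out of the nucleus and lets larvae grow, and antagonists do the opposite. The balance of ligands, many of them made by sensory neurons and the intestine, is best known for setting whether a larva grows on or enters the arrested dauer stage.

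RNA-seq was performed on whole L2 larvae of the wild type strain N2. Non-heat shock (NHS) worms stayed at 20 °C, and heat shock (HS) worms were placed at 34 °C for 30 min before collection, with 3 biological replicates in each group. The same design with *C. briggsae* AF16 gave 6 further libraries. All worms were wild type, and every library was made from total RNA of whole animals. Values are normalized counts, that is, read counts per gene scaled to the same typical gene level in the 6 libraries of a species. One read was worth 0.835 to 1.38 normalized counts in *C. elegans*, so a value near 1 stands for about 1 read. For 36 of the 40 genes all 6 values lay within 0.05 of a whole number of reads. The normalized counts of a library summed to between 32228419 and 32533962 in NHS and between 39420280 and 43048830 in HS, from an estimated 28600000 to 43900000 reads. Markers of neurons, intestine, hypodermis, body wall muscle, pharynx and germline were all above 0 in every library. Hypodermal genes that cycle with the molt varied widely within the groups, with *wrt-2* between 36.4 and 648 normalized counts.

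The 40 genes spanned more than 3 orders of magnitude in NHS larvae. In NHS, 11 genes had a mean of at least 100 normalized counts, 9 lay between 10 and 100, 18 were above 0 but under 10, and 2 were at 0. Together the genes summed to 5033 to 6012 normalized counts in NHS and to 4913 to 5188 in HS libraries. The 10 most abundant genes made up 86.4 to 88.6% of that sum. *ins-33* alone held 28.3 to 35.3% of it. The sum was 0.0155 to 0.0187% of all normalized counts of an NHS library and 0.0118 to 0.0125% in HS. Between 34 and 39 of the 40 genes were above 0 in a given library.

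**Figure D1:**
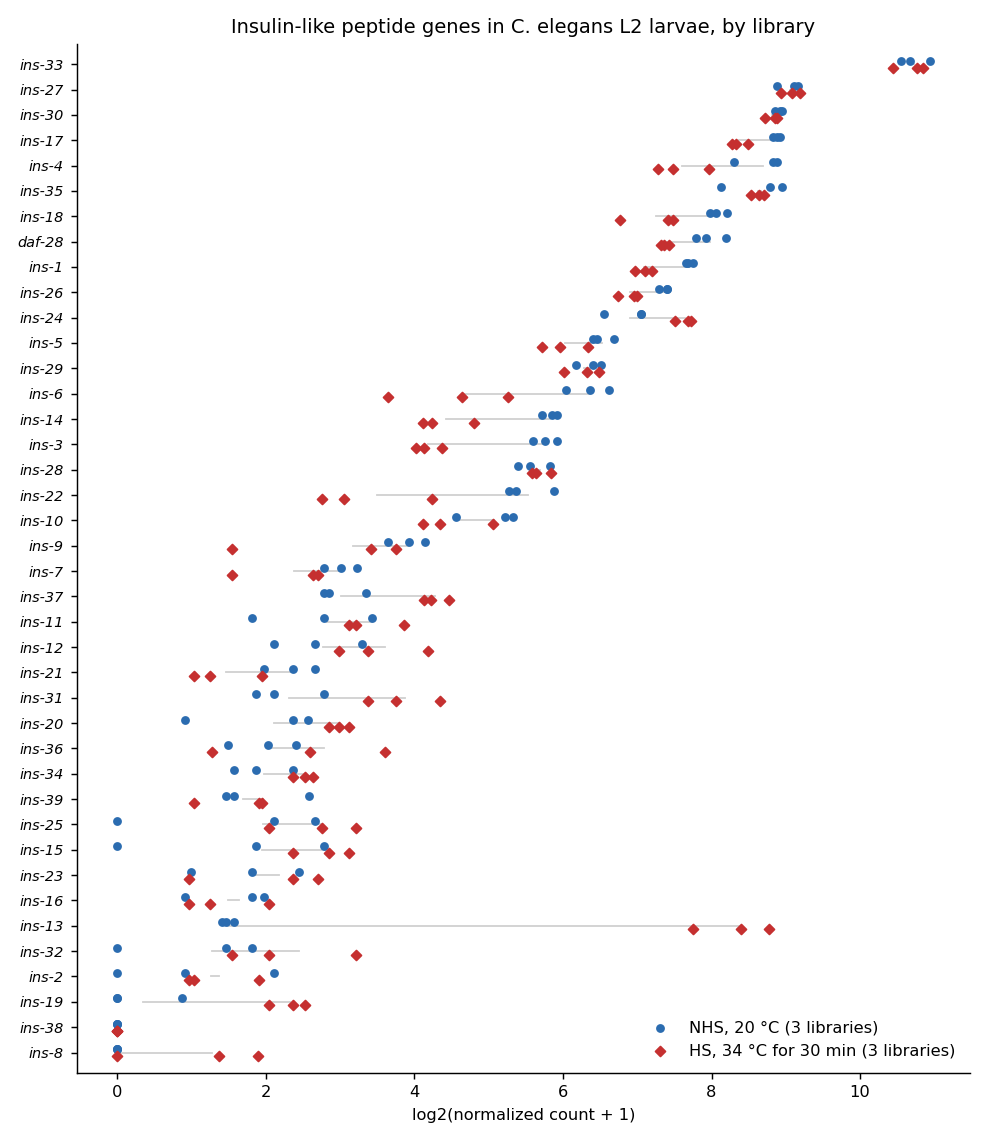
Each row is 1 of the 40 insulin-like peptide genes, ordered by NHS mean, and the x axis gives log2(normalized count + 1). Circles are the 3 NHS libraries and diamonds the 3 HS libraries, with a grey line from the NHS to the HS mean. *ins-13* moves from 1.67 to 1.97 normalized counts in NHS to 215 to 435 in HS, and the HS points of *ins-3*, *ins-6*, *ins-14* and *ins-22* all lie to the left of their NHS points.

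Levels were compared between genes per kb of annotated exon. *ins-33* was first in NHS with 3256 ± 454 normalized counts per kb (SD, n = 3), and *ins-27* was second with 1714 ± 174. Their ranges did not overlap. The third gene, *ins-35*, had 1056 ± 291 per kb and overlapped the fourth, *ins-17*, with 841 ± 29.7. Ranges separated in this way for 7 of the 37 neighbouring pairs among the 38 genes above 0, and the other 30 pairs overlapped. *ins-13* was at place 31 of the order in NHS with 5.85 ± 0.488 per kb. In HS it was at place 3 with 1068 ± 357 per kb, between *ins-27* with 1737 ± 148 and *ins-35* with 1035 ± 61.6, and its HS range overlapped that of *ins-35*.

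A gene was tested if its mean over the 6 libraries reached 2, which held for 36 of the 40 genes. The other 4 were *ins-2*, *ins-8*, *ins-16* and *ins-38*. A gene counted as up or down when its adjusted p was under 0.01 and the change exceeded 2-fold. By this rule 2 of the 36 tested genes, *ins-13* and *ins-37*, were up and 5, *ins-3*, *ins-4*, *ins-6*, *ins-14* and *ins-22*, were down. Over all 17551 genes tested the shares were 10.2% up and 2.77% down, against 5.56% up and 13.9% down for the insulin-like peptide genes. The shares depended on level. At a mean of at least 10, 9.09% of 22 insulin-like peptide genes were up and 22.7% down, beside 7.89% and 3.23% of all 14632 genes. At a mean of 2 to 10, 0 of 14 insulin-like peptide genes were up, beside 21.8% of all 2919 genes. *ins-13*, *ins-19* and *ins-32* reached the mean of 2 only through their HS libraries. At an adjusted p under 0.01 and any fold change 3 genes were higher and 9 lower, where the shares over all genes were 15.8% and 12.9%. HS and NHS values did not overlap for 6 genes that were higher and 13 that were lower in HS, beside 30.6% and 25.5% of all genes. The median log2 fold change of HS against NHS (log2FC) was -0.06, beside 0.04 over all genes.

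**Figure D2:**
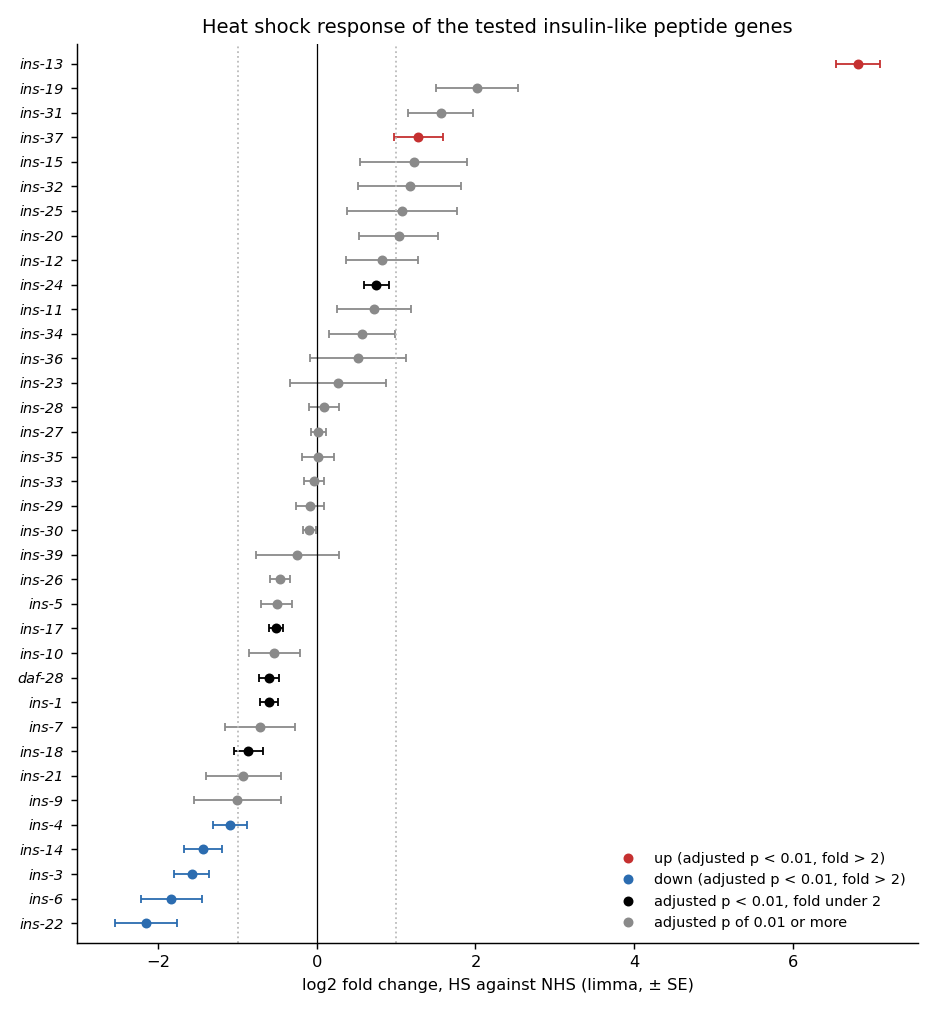
The x axis gives the log2 fold change of HS against NHS with its standard error for the 36 tested genes, from 3 libraries per group. Dotted lines mark a 2-fold change. The 5 genes called down lie between -2.16 and -1.09, and *ins-13* stands apart at 6.82.

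Among the ligands known as DAF-2 agonists, *ins-4* and *ins-6* fell and *daf-28* was lower by less than 2-fold. These 3 genes act together against dauer entry and are expressed in amphid sensory neurons. *ins-6* (chromosome II, 6000436 to 6001009, plus strand, ce11) had 81.6, 65.1 and 97.6 normalized counts in NHS and 11.5, 23.9 and 37.3 in HS replicates 1, 2 and 3. The highest HS library was well below the lowest NHS library. The log2FC was -1.83 (SE 0.38, adjusted p = 0.0053). The call was lost in 4 of the 6 fits that left out 1 library (NHS replicate 1, 2 or 3, or HS replicate 2), with adjusted p up to 0.023 and fold changes from -2.21 to -1.40. *ins-4* (chromosome II, 5996366 to 5997008, plus strand) had 454, 314 and 470.1 normalized counts in NHS and 178, 155 and 248 in HS. All HS values were lower than all NHS values, and the log2FC was -1.09 (SE 0.21, adjusted p = 0.0047). This change lay close to the 2-fold limit, and 4 of the 6 fits without 1 library lost the call (those without NHS replicate 1, NHS replicate 3, HS replicate 1 or HS replicate 2), with adjusted p up to 0.027. *daf-28* had 220.2, 293 and 242 normalized counts in NHS and 159, 172 and 163 in HS. The groups did not overlap, and the log2FC was -0.60 (SE 0.13, adjusted p = 0.0040).

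*ins-3*, another agonist that promotes larval growth, lies between *ins-2* and *ins-4* on chromosome II (5990099 to 5990768, minus strand). It had 53.1, 47.6 and 59.4 normalized counts in NHS and 15.3, 19.8 and 16.6 in HS. The 3 HS values were tight and far below NHS, with a log2FC of -1.58 (SE 0.22, adjusted p = 4.4e-04), and the call was kept without any 1 library. *ins-5*, from the same gene cluster, had a log2FC of -0.51 (SE 0.19, adjusted p = 0.055). *ins-7*, an agonist of the intestine and neurons that DAF-16 represses, was at 1.91 to 8.35 normalized counts over the 6 libraries. Its HS values all lay below NHS, but at these few reads the test did not separate them (log2FC -0.72, SE 0.44, adjusted p = 0.21).

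*ins-22* and *ins-14* fell as well. *ins-22*, a peptide of neurons whose tagged form is used to follow dense-core vesicles, is on chromosome III (10026289 to 10026686, plus strand). It had 40.3, 37.6 and 57.7 normalized counts in NHS and 5.74, 7.28 and 17.9 in HS. This was the largest decrease among the tested insulin-like peptide genes, with a log2FC of -2.16 (SE 0.39, adjusted p = 0.0019), and only leaving out NHS replicate 3 ended the call (adjusted p = 0.010, just above the limit). *ins-14* (chromosome II, 6745435 to 6745814, minus strand) had 57.0, 59.3 and 51.4 normalized counts in NHS and 16.3, 27 and 17.9 in HS. Its groups were well apart, with a log2FC of -1.44 (SE 0.24, adjusted p = 0.0012), and the call was kept in all 6 fits without 1 library. The gene next to it, *ins-15*, was at 0 to 7.66 normalized counts and was not called.

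The ligands described as antagonists of DAF-2, *ins-1* and *ins-18*, were lower in HS too, by less than 2-fold. *ins-1*, the member most like human insulin, had 202, 204 and 215 normalized counts in NHS and 124, 146 and 137 in HS. Both groups were narrow and apart, and the log2FC was -0.61 (SE 0.11, adjusted p = 0.0023). *ins-18* had 295, 266 and 252 normalized counts in NHS and 170.3, 178 and 108 in HS, with a log2FC of -0.86 (SE 0.18, adjusted p = 0.0049). *ins-17*, which favours dauer entry, had 485, 469 and 452 normalized counts in NHS and 358, 308 and 321 in HS. The difference was small but clear of the spread, with a log2FC of -0.51 (SE 0.09, adjusted p = 0.0015). Agonists and antagonists thus both included genes with lower HS levels, and whether their fold changes differ was not tested.

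The neuronal source of several of these ligands makes general neuron genes relevant. The 7 neuron markers (*unc-119*, *snb-1*, *ric-4*, *rab-3*, *unc-10*, *egl-3*, *unc-104*) had log2FC values between -0.62 and -0.18 with a median of -0.54, and 5 of the 7 were lower at an adjusted p under 0.01, beside 12.9% of all genes. Their summed level was 20398 to 22485 normalized counts in NHS and 16859 to 17028 in HS. None of the neuron markers changed by 2-fold. Median log2FC values were -0.63 for hypodermis, 0.03 for intestine, 0.28 for body wall muscle, 0.02 for pharynx and -0.0062 for germline markers. The part of the neuron genes in the lower levels of insulin-like peptide genes was not tested. In whole larvae, fewer cells of a type and less RNA per cell cannot be told apart. *ins-4*, *ins-6* and *daf-28* are known to be made in the ASI and ASJ sensory neurons. Of 5 genes of these neurons, none was lower at an adjusted p under 0.01. At the same limit 4 were higher, beside 15.8% of all genes that were higher. The summed level of the 5 genes overlapped between the groups, with 923 to 1001 normalized counts in NHS and 903 to 1097 in HS. *daf-7*, the TGF-β ligand of ASI, had 793, 849 and 776 normalized counts in NHS and 710.3, 829 and 569 in HS (log2FC -0.21, SE 0.13, adjusted p = 0.19). *trx-1*, a thioredoxin of ASJ, and *ssu-1*, a sulfotransferase of ASJ, were called up with log2FC values of 1.05 and 1.02, but the calls were kept in 0 and 2 of the 6 fits without 1 library. *gpa-4*, a G protein subunit of ASI, was higher by less than 2-fold (0.78, adjusted p = 0.0076). *str-3*, a chemoreceptor gene of ASI, had 1, 0 and 1 reads in NHS and 16, 7 and 6 in HS, a ratio of 17.7 (95% counting interval 4.49 to 153) and an adjusted p of 0.0016. It reached the mean of 2 only through its HS libraries.

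*ins-13* was the member with by far the largest change. It had 1.97, 1.67 and 1.77 normalized counts in NHS, which is 2 reads in each library, and 337, 215 and 435 in HS, from 352, 207 and 315 reads. The log2FC was 6.82 (SE 0.28, adjusted p = 5.2e-07), and without any 1 library it stayed between 6.59 and 7.10. The ratio of reads, corrected for library scale, was 178 with a 95% counting interval of 81.6 to 487, which covers counting error only and not the spread between replicates. The share of *ins-13* in the sum of all insulin-like peptide genes went from 0.0313 to 0.0332% in NHS to 4.23 to 8.85% in HS. Without *ins-13* the sum of the others was 5032 to 6010 normalized counts in NHS and 4479 to 4875 in HS.

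*ins-13* (chromosome II, 5544512 to 5544864, minus strand, 308 exon bases in 2 exons) overlaps the 3′ end of *acdh-2*, a predicted acyl-CoA dehydrogenase gene on the same strand. In the Ensembl annotation of ce11, 87 of the 308 exon bases also lie in the 3′ UTR of *acdh-2*, and 221 belong to *ins-13* alone. The transcript models that the authors used may end elsewhere. *acdh-2* had 1387, 1538 and 1519 normalized counts in NHS and 1682, 1159 and 2176 in HS, with no change past the spread (log2FC 0.13, SE 0.23, adjusted p = 0.69). *ins-13* amounted to 0.142, 0.109 and 0.117% of the *acdh-2* value in the same NHS library and to 20.0, 18.6 and 20.0% in HS. The order of the 3 HS libraries was the same for both genes, with replicate 3 highest and replicate 2 lowest. The part of *acdh-2* in the *ins-13* value was not tested. Among the 40 genes, *ins-13* was the only one that overlapped a protein coding gene on its own strand.

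Of 15 other genes within 20 kb of *ins-13*, 9 could be tested and 4 were up, beside 10.2% of all genes tested. *C17C3.24*, *C17C3.11*, *hlh-27* and *C17C3.5* reached the mean of 2 only through their HS libraries, so these could be called up but not down. Further along its strand, *C17C3.24* was at 0 in all NHS libraries and at 61.4, 42.5 and 50.1 normalized counts in HS. *hlh-27*, a helix-loop-helix transcription factor gene beyond it, had 0, 1 and 0 reads in NHS and 41, 23 and 26 in HS, a ratio of 110.2 (95% counting interval 19.3 to 4398). Both were called up. On the other strand, *C17C3.6* went from 5.90, 5.84 and 14.2 to 67.0, 64.5 and 49.7 normalized counts and *C17C3.5* from 0, 0.835 and 0 to 37.3, 44.7 and 29.0, and both were called up. The insulin-like peptide genes *ins-12* and *ins-11*, further along on that strand, had log2FC values of 0.82 (SE 0.45) and 0.72 (SE 0.47) and were not called. The part of these neighbours in the *ins-13* value was not tested.

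**Figure D3:**
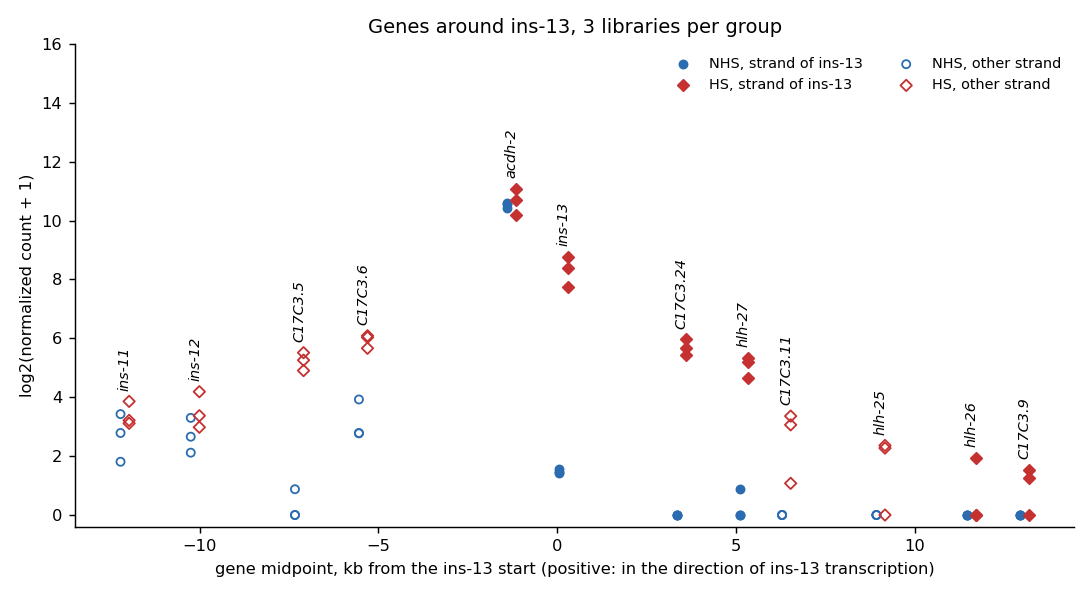
Genes around *ins-13*, with the distance of each gene's midpoint from the *ins-13* start in kb on the x axis and log2(normalized count + 1) of the 3 NHS (circles) and 3 HS (diamonds) libraries on the y axis. Filled symbols mark the strand of *ins-13*. *acdh-2* is high in all 6 libraries, while *ins-13*, *C17C3.24* and *hlh-27* stand at 0 to 1.97 normalized counts in NHS and are above 20 in every HS library.

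*ins-37* (chromosome II, 13835101 to 13836107, minus strand) was the other gene called up. It had 5.90, 9.18 and 6.21 normalized counts in NHS and 21.1, 17.7 and 16.6 in HS. The groups did not overlap, and the log2FC was 1.28 (SE 0.31, adjusted p = 0.0083). From 24 reads in NHS and 51 in HS the ratio was 2.60 with a 95% counting interval of 1.57 to 4.42. The call stood close to its limit and was lost whichever library was left out, with adjusted p from 0.011 to 0.038. *ins-37* starts 127 bases after the end of *F08G2.7* on its strand, which had 467 normalized counts on average in either group, and 171 of its exon bases overlap an annotated small nuclear RNA gene on the same strand. Beyond *ins-37* on that strand, *F08G2.5* had 84.5, 99.4 and 84.3 normalized counts in NHS and 1817, 1813 and 702 in HS. The part of these genes in the *ins-37* value was not tested.

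*ins-24*, *ins-31* and *ins-19* were higher in HS without being called. *ins-24* had 132, 92.7 and 131 normalized counts in NHS and 204, 210.0 and 181 in HS, with no overlap and a log2FC of 0.75 (SE 0.16, adjusted p = 0.0041), under 2-fold. *ins-31* and *ins-19* lie next to each other on opposite strands of chromosome II. *ins-31* had 5.90, 3.34 and 2.66 normalized counts in NHS and 12.5, 9.36 and 19.3 in HS, with an adjusted p of 0.012 that missed the threshold of 0.01. *ins-19* had 1 read over the 3 NHS libraries and 11 over the 3 HS libraries, a ratio of 13.5 with a 95% counting interval of 1.96 to 579, and an adjusted p of 0.011. *ins-8* was at 0 in all NHS libraries and at 0, 2.71 and 1.59 normalized counts in HS, too few to compare.

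Of the 5 insulin-like peptide genes with the highest NHS means, *ins-4* was called down and *ins-17* was lower by less than 2-fold, both with no overlap as given above, and *ins-33*, *ins-27* and *ins-30* did not pass the test. *ins-33* had 1961, 1506 and 1623 normalized counts in NHS and 1832, 1748 and 1390 in HS, with a log2FC of -0.04 (SE 0.13, adjusted p = 0.84). *ins-27* had 551, 470.1 and 572 in NHS and 490.1, 581 and 544 in HS, with 0.02 (SE 0.10, adjusted p = 0.88). *ins-30* had 486, 463 and 494 in NHS and 470.0, 461 and 422 in HS, with -0.09 (SE 0.08, adjusted p = 0.37). The HS and NHS values of all 3 genes overlapped. *ins-35* also overlapped, with NHS values of 492, 279 and 439 and HS values of 399, 370.2 and 417. Its NHS replicate 2 was far below the other NHS libraries. That library was the lowest of the 3 in 12 of 20 insulin-like peptide genes with an NHS mean of at least 10, beside 31.9% of all such genes, and it was also the lowest for the molt-cycle genes *dpy-7*, *rol-6* and *wrt-2*. The part of larval stage in these levels was not tested.

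Many insulin-like peptide genes lie in clusters, taken here as neighbours with under 20 kb from start to start. The cluster of *ins-2* to *ins-6* and *ins-20* on chromosome II held 3 of the 5 genes called down, out of 5 tested. Over all genes tested 2.77% were down and 10.2% up. The calls of *ins-4* and *ins-6* were each kept in only 2 of the 6 fits without 1 library. The median log2FC of this cluster was -1.09. Of its other tested genes, *ins-5* had -0.51 (adjusted p = 0.055) and *ins-20* had 1.03 (SE 0.50, adjusted p = 0.12), and neither was called. The cluster of *ins-24* to *ins-30* on chromosome I, with 7 genes, held no gene called by limma in either direction and had a median of 0.02. An unadjusted p under 0.05 was found for 2 of the 7, beside 9231 of all 17551 genes tested. Within it *ins-26* had 168, 168 and 156 normalized counts in NHS and 106, 123 and 127 in HS (log2FC -0.47, SE 0.13, adjusted p = 0.013), and its neighbour *ins-24* was higher. Of the cluster of *ins-21*, *ins-22* and *ins-23* on chromosome III, only *ins-22* was called. The 13 tested genes outside clusters had 1 call, *ins-37*.

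The receptor and the steps after it were compared next. Of 17 genes of the DAF-2 pathway, from the receptor to DAF-16 and SKN-1, none was called by limma. An unadjusted p under 0.05 was found for 7 of them, beside 9231 of all 17551 genes tested. The 6 that were lower at an adjusted p under 0.01 (12.9% of all genes were) changed by less than 2-fold, and the median log2FC over the list was -0.05. *daf-2*, the receptor gene, had 5115, 5433 and 5071 normalized counts in NHS and 5099, 5161 and 4936 in HS (log2FC -0.04, SE 0.05, adjusted p = 0.57). *daf-16*, the FOXO gene, had 3159, 3325 and 2896 in NHS and 3258, 3751 and 3099 in HS (0.11, SE 0.08, adjusted p = 0.32). The largest difference was that of *akt-1*, the AKT kinase gene, with 2185, 2045 and 2161 in NHS and 1259, 1230 and 1400.0 in HS (-0.72, SE 0.07, adjusted p = 5.7e-05). Of 12 genes for peptide processing and secretion none was called either. The list shares *egl-3* and *rab-3* with the neuron markers. All 12 had an unadjusted p under 0.05, and 8 were lower at an adjusted p under 0.01, beside 12.9% of all genes. The list did not move 1 way. *kpc-1*, *aex-5* and *asna-1* were higher, with log2FC values of 0.47, 0.19 and 0.12 (adjusted p by limma 0.074, 0.062 and 0.092). The largest difference there was *unc-31*, which is needed for dense-core vesicle release, with a log2FC of -0.76 (SE 0.16, adjusted p = 0.0081).

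Of 12 genes known as DAF-16 targets 2 were up, beside 10.2% of all genes, and none was down. An unadjusted p under 0.05 by limma was found for 6 of them, beside 9231 of all 17551 genes tested. *hsp-12.6*, a small heat shock protein gene that HSF-1 also controls, had 4.91, 3.34 and 3.55 normalized counts in NHS and 139, 92.5 and 110.4 in HS (log2FC 4.54, SE 0.26, adjusted p = 4.4e-06). *mtl-1*, a metallothionein gene, had a log2FC of 1.06, and its call was kept in 1 of the 6 fits without 1 library. *lea-1*, a gene of the late embryogenesis abundant family, was higher (0.80, SE 0.09, adjusted p = 3.2e-04) and *icl-1*, a glyoxylate cycle enzyme gene, was lower (-0.58, SE 0.10, adjusted p = 0.0025), each by less than 2-fold and with no overlap. *sod-3*, a widely used DAF-16 reporter gene, had 110.1, 112 and 113 normalized counts in NHS and 154, 98.8 and 142 in HS (0.21, SE 0.17, adjusted p = 0.34). Among 16 dauer and sensory neuron genes the 3 up were *str-3*, *trx-1* and *ssu-1*, beside 10.2% of all genes, and none was down (9 had an unadjusted p under 0.05). *daf-9*, the cytochrome P450 that makes the steroid ligand against dauer entry, had 644, 585 and 888 normalized counts in NHS and 226, 191 and 373 in HS, with a log2FC of -1.45 and an adjusted p of 0.0102 that missed the threshold.

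**Figure D4:**
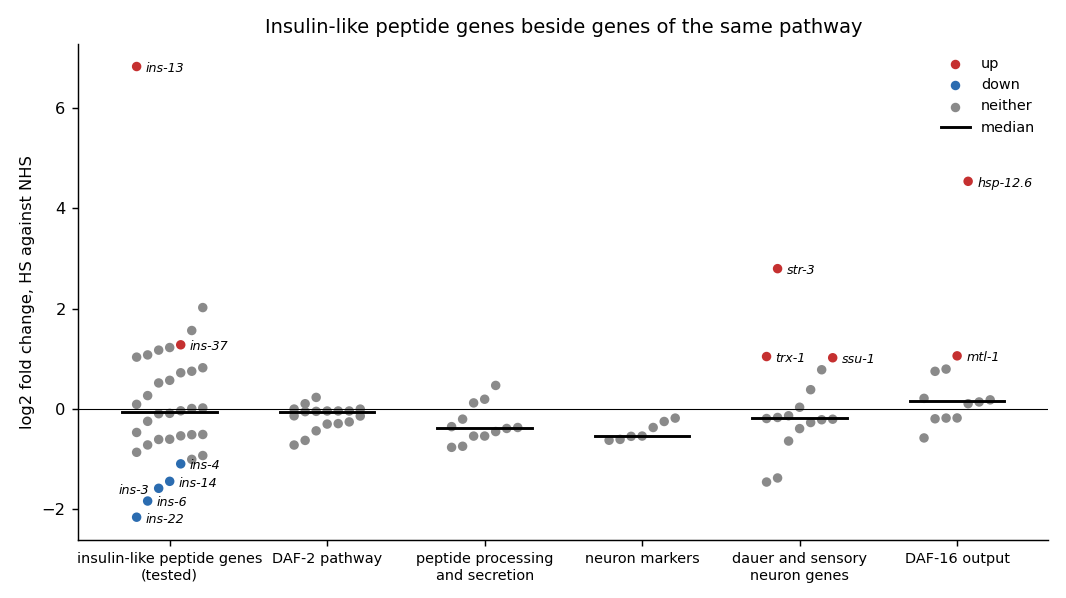
Log2FC of HS against NHS (y axis) for the 36 tested insulin-like peptide genes and 5 lists of related genes (x axis), with 1 point per gene and a bar at the median. *egl-3* and *rab-3* appear both in the peptide processing list and among the neuron markers. The insulin-like peptide genes span -2.16 to 6.82, while the 17 genes of the DAF-2 pathway lie between -0.72 and 0.23.

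In *C. briggsae*, 7 genes carried an *ins* name in the study's tables, and 6 were tested. In the whole *C. briggsae* file 4.5% of 18470 tested genes were up and 1.73% down. Both copies named for *ins-6* were down. *Cbr-ins-6.1* had 138, 133 and 124 normalized counts in NHS and 51.1, 34.5 and 28.6 in HS (log2FC -1.81, SE 0.23, adjusted p = 0.0017). *Cbr-ins-6.2* had 129, 79.5 and 86.3 in NHS and 31.7, 12.9 and 15.5 in HS (-2.31, SE 0.36, adjusted p = 0.0034). HS values of both copies lay below all NHS values, which 24.3% of all *C. briggsae* genes tested also showed, and the same held for *ins-6* in *C. elegans*. Each of the 2 calls was lost without any 1 NHS library, and that of *Cbr-ins-6.2* also without HS replicate 2 or 3, with adjusted p up to 0.020.

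*Cbr-ins-3* overlapped between the groups, with 62.4, 48.3 and 51.4 normalized counts in NHS and 28, 57.2 and 59.6 in HS (log2FC -0.23, SE 0.31, adjusted p = 0.60). *Cbr-ins-13* stayed at few reads, with 5.25, 3.79 and 3.08 in NHS and 2.44, 5.39 and 3.58 in HS (-0.09, SE 0.45, adjusted p = 0.84). *Cbr-ins-12* was up, from 22.3, 31.2 and 20.6 in NHS to 96.2, 233 and 255 in HS (2.83, SE 0.38, adjusted p = 0.0022), and lost the call without NHS replicate 1 or 3 (adjusted p = 0.015 in each). *Cbr-ins-11* had 171, 147 and 162 in NHS and 75.5, 290.1 and 444 in HS (0.42, SE 0.61, adjusted p = 0.63). HS replicate 1 was the lowest HS library for *Cbr-ins-3*, *Cbr-ins-11*, *Cbr-ins-12* and *Cbr-ins-13*, and without it *Cbr-ins-11* was called up (1.16, SE 0.17, adjusted p = 0.0012). The 2 species were normalized separately and their fold changes were not tested against each other.

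**Figure D5:**
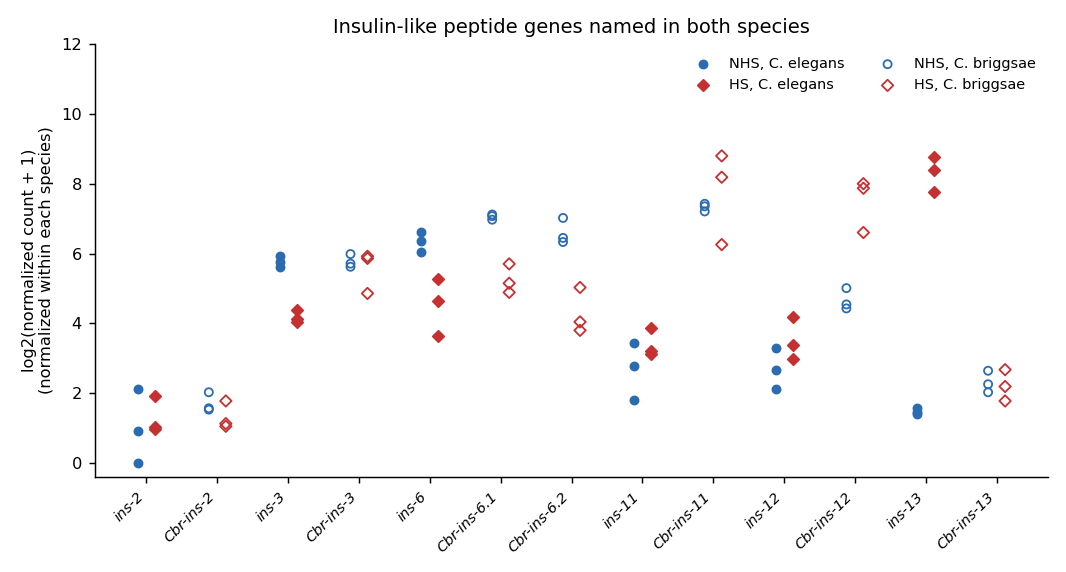
Values of the insulin-like peptide genes named in both species, as log2(normalized count + 1) on the y axis, with 3 NHS (circles) and 3 HS (diamonds) libraries per gene. Filled symbols are *C. elegans* and open symbols *C. briggsae*. *ins-6* and both *C. briggsae* copies are lower in HS, whereas *ins-13* is at 215 to 435 normalized counts in HS and *Cbr-ins-13* at 2.44 to 5.39.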

How the data were processed

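Stranded total RNA-seq libraries, 12 in all, came from whole L2 larvae of N2 (*C. elegans*) and AF16 (*C. briggsae*). The authors deposited normalized counts per gene, a signal value, made by assigning reads to mRNA transcripts with Salmon 0.13.1 and dividing by DESeq2 1.18.1 normalization factors within each species. Of low *C. elegans* values 90.7 to 92.0% came out as whole reads, too few to rebuild a count table, so no count model was run. Reads are given only for single low genes whose 6 values were all whole. Depth was estimated from the value of 1 read. Values were tested as log2(normalized count + 1) by limma 3.58.1 (R 4.3.3, statmod 1.5.0; variance trend, robust; two-sided) for genes with a mean of at least 2, adjusted by Benjamini-Hochberg over all genes of a species. The pseudocount understates changes of low genes. Means and SDs used pandas 2.3.3 and numpy 2.4.6, and intervals used scipy 1.17.1. Positions came from the Ensembl WBcel235 (ce11) annotation, and symbols were found for 20095 genes. The members and lists were chosen with earlier results of these data known. Every library is given for insulin-like peptide genes called, at an adjusted p under 0.01, among the 5 highest in NHS, or at 0 in 1 group only. Other genes named, such as those near a threshold or next to called genes, were added after their values were seen. Tested on simulated data of *C. elegans* (18738 genes, changed genes with an NHS mean of at least 10), 46% of 2-fold, 100% of 4-fold and 100% of 8-fold increases and 98% of 4-fold decreases were called. A call needs an estimated change above 2-fold, so the 46% reflects that limit and does not measure sensitivity. The simulation used a common spread for all genes and did not cover changes of genes with fewer reads. The alternatives were other pseudocounts, filters, scalings and thresholds, a term for the replicate number, and leaving out each library. One *C. briggsae* column named AF15 was taken as AF16 NHS replicate 3. Columns not used numbered 0. Sequences were not used here.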

Additional observations from a re-analysis of the deposited data

How the results depend on the processing

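*ins-13*, *ins-3* and *ins-14* kept their calls under every alternative tried. Of the insulin-like peptide genes, 1 instead of 2 was up with a pseudocount of 5, with scaling to equal totals and with the replicate block, 4 were up at an adjusted p under 0.05, and 9 instead of 5 were down with no minimum fold change. Without any 1 library 1 was up and 2 to 5 were down. Over all *C. elegans* genes 1791 were up, and 1137 without HS replicate 1. In *C. briggsae* 832 were up and 348 to 1228 without 1 library. Scaling to equal totals moved the median of all genes from 0.04 to -0.32, and the genes up and down from 1791 and 486 to 1480 and 1329. It also turned *ins-27*, *ins-28* and *ins-35* to -0.33, -0.26 and -0.35, and TMM scaling turned *ins-35* to -0.0024. With equal totals *ins-18* passed the rule for down (-1.22, adjusted p = 9.8e-05 by limma). There *ins-30* had -0.45 (adjusted p = 9.8e-04), and *ins-1* and *daf-28* had -0.96 each. *ins-24* went to 0.40 with equal totals (adjusted p = 0.046). Leaving out 1 library turned the sign of genes that were not called, with ranges of -0.11 to 0.79 for *ins-23*, -0.065 to 0.087 for *ins-27*, -0.0093 to 0.21 for *ins-28*, -0.19 to 0.045 for *ins-29*, -0.12 to 0.086 for *ins-33*, -0.24 to 0.17 for *ins-35*, -0.035 to 1.13 for *ins-36* and -0.45 to 0.11 for *ins-39*. In *C. briggsae* the ranges were -0.11 to 1.16 for *Cbr-ins-11*, -0.32 to 0.12 for *Cbr-ins-13* and -0.41 to 0.12 for *Cbr-ins-3*. The cause of these shifts was not tested. With scaling to equal totals the DAF-2 pathway list had 1 down, peptide processing 2 down, DAF-16 output 1 up, the dauer list 1 up and 2 down, and the marker lists 1 up. With no minimum fold change 6, 8, 1 and 1 genes of the first 4 lists were down, and 10 markers were up and 11 down. The DAF-16 output list had 1 instead of 2 up with a pseudocount of 5, a mean of at least 10 or TMM scaling, and 1 to 2 without 1 library. The dauer list had 1 instead of 3 up with a pseudocount of 5 and 1 to 2 without 1 library. It had 1 instead of 0 down with a pseudocount of 0.5 or 5, a mean of at least 10 or TMM scaling, 2 with the replicate block or at an adjusted p under 0.05, and 0 to 1 without 1 library. The marker lists had 1 instead of 3 up with a pseudocount of 5, 1 to 2 up without 1 library, and 1 down with the replicate block. Of the *C. briggsae* genes 0 to 2 were up and 0 to 2 down without 1 library.

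The labels number the replicates but do not say whether same-numbered NHS and HS libraries were made together. The main test took the libraries as unpaired. Deviations of same-numbered libraries from their group means correlated with r of 0.09, 0.06 and 0.15 in *C. elegans*. In *C. briggsae* r was 0.02, 0.08 and 0.07. These values are low, but each library correlated best with its own number, so whether the replicates were paired was not settled. With the replicate block 1916 *C. elegans* genes were up and 627 down, and of the insulin-like peptide genes 1 was up. Few reads limit the 14 tested genes with a mean under 10, whose standard errors reached 0.69 on the log2 scale.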
